A study of Homo sapiens with 15 samples.

Results

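Replication-dependent histone genes were followed through the cell cycle of U2OS cells, a human osteosarcoma line, in libraries that separate new from older RNA. The members were all genes that the deposited tables name with a symbol starting in HIST1H, HIST2H, HIST3H or HIST4H. There were 37 such genes of 19531 gene names, counted in 53 of 68625 regions near transcript ends. They comprised 2 H1, 7 H2A, 12 H2B, 7 H3 and 9 H4 genes. Symbols are given as in the files, and all 37 matched a RefSeq gene (HIST1H4C is H4C3 there, HIST2H2BE is H2BC21).

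Core histones H2A, H2B, H3 and H4 form the nucleosome, and H1 binds the DNA that leaves it. Most messages of these genes end in a stem-loop that the stem-loop binding protein SLBP holds, carry no poly(A) tail and are made while DNA replicates. Some of the genes also give messages with a poly(A) tail, which are known from cells that have left the cycle. The assay primes on poly(A) tails, so the reads below stand for tailed histone RNA and need not stand for the stem-loop form.

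In the study, growing cells that had not been synchronised took up 4-thiouridine, a uridine analogue that enters RNA as it is made, and EdU, a thymidine analogue that enters replicating DNA, for 45 minutes. They were then fixed with glyoxal and methanol and sorted, on their EdU signal and their content of DNA, as G1, Early_S, Late_S or G2 (also written G2/M) gates, although the series title calls them synchronised. RNA was alkylated, so that the analogue is sequenced as C where T would stand, and 500 ng went into 3' end libraries. Each gate had 3 libraries, and 3 further libraries, No_alkylation, skipped the alkylation; the labels do not say which cells these hold. A read with a T-to-C conversion is called a T>C read and marks RNA made in the pulse. A gene's steady-state level counts all its reads, the nascent level counts T>C reads alone, and T>C reads as a percentage of all its reads give its labelled share. The labels do not say whether the 3 libraries of a gate came from separate cultures, so p-values measure the spread between these libraries.

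Promoters of 4 members are shown as examples, and all 4 members fell at steady state from G1 to Early_S. HIST2H2BE and HIST1H2BJ were the most abundant H2B messages of G1. HIST1H2AC fell at steady state but was not called in nascent RNA. HIST1H4H was the most abundant H4 gene with a listed window. HIST1H4C, which rose from G1 to Early_S, has no listed window. Whether the motifs go with the direction of change was not tested. The sequences are from RefSeq (GRCh38.p14), 250 bases 5′ to 3′ up to the gene's start, and capitals mark the motifs searched on both strands: the octamer ATTTGCAT, CCAAT and TATAAA.
HIST2H2BE (chr1:149886683-149886932, minus strand): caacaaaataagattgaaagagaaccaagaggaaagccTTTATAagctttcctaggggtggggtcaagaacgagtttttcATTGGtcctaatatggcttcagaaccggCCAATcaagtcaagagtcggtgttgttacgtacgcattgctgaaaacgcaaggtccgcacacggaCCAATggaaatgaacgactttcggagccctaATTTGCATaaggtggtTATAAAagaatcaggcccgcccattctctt
HIST1H2BJ (chr6:27132796-27133045, minus strand): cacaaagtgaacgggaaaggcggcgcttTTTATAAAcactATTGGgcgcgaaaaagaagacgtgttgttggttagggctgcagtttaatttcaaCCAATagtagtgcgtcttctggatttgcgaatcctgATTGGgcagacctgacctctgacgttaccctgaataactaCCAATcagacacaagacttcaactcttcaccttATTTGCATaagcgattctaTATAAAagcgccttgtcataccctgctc
HIST1H2AC (chr6:26123922-26124171, plus strand): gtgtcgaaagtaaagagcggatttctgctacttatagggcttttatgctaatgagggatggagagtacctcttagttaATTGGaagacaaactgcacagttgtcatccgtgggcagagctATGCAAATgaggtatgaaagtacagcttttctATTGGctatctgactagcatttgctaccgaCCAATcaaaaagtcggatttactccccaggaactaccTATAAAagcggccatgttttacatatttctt
HIST1H4H (chr6:26285535-26285784, minus strand): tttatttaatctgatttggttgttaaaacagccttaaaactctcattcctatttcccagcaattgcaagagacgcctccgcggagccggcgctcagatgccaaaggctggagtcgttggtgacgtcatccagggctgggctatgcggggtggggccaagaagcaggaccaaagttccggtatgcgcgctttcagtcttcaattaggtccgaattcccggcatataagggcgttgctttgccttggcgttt
In HIST2H2BE the octamer began 46 bases before the start, just upstream of a TATAAA at 30 bases. HIST1H2BJ had the same order, with the octamer at 47 bases and TATAAA at 28 bases. HIST1H2AC held the octamer on the opposite strand at 130 bases, and HIST1H4H held none of the 3 motifs. Of the 36 members with a listed window, 12 held the octamer (33.3%, against 1.66% of 27305 promoters), 29 held CCAAT (80.6% against 33.0%) and 22 held TATAAA (61.1% against 11.1%). The octamer was in 8 of 12 H2B, 3 of 7 H2A, 1 of 7 H3 and 0 of 8 H4 windows, but the 12 windows held only 8 distinct sites in the genome, all of them in H2B windows. The sites of HIST1H2AC, HIST1H2AE, HIST1H2AG and HIST1H3D were those of their divergent neighbours HIST1H2BC, HIST1H2BG, HIST1H2BJ and HIST1H2BF. CCAAT was in every H1, H2A, H2B and H3 window and in 1 of 8 H4 windows, and TATAAA in 3 of the 8. Matches on opposite strands can overlap, and 6 pairs of divergent neighbours share 222 to 247 bases of their windows, so windows are not independent: HIST1H2AC and HIST1H2BC have 245 bases in common, and HIST1H2AG and HIST1H2BJ 247 bases.

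Across the 15 libraries, 16096695 to 21803972 reads fell in the counted regions, of which 9057 to 25937 were histone reads. T>C reads made up 21.5% to 22.8% of reads in G1, 17.9% to 18.9% in Early_S, 9.95% to 10.1% for Late_S, 9.77% to 10.4% for G2 and 1.00% to 1.03% without alkylation. The mesenchymal genes VIM, SPARC, COL1A1, CD44 and THY1 were above 177 normalised CPM (reads per 1000000, scaled by TMM) in every library, COL1A2 was at most 1.78 CPM, and CDKN2A and TERT had 0 reads. Markers of blood, endothelium and basal epithelium (PTPRC, CD3E, PECAM1, CDH5, KRT5) reached at most 0.700 CPM, whereas the epithelial genes EPCAM and CDH1 reached 14.7 and 9.13 CPM. The mitotic cyclin gene CCNB1 measured 348 ± 9.64 CPM (SD, n = 3) in the G2 libraries, beside 132 ± 17.4 in those of G1. In these bulk samples, fewer cells carrying a message and less message per cell cannot be told apart.

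A few genes held most histone reads. HIST1H4C held 32.1% of the 210641 histone reads, HIST1H2AC 16.5%, HIST1H2BJ 15.8% and HIST2H2BE 7.57%, and the 10 most abundant members 94.6%. These shares pool all libraries, and their order differed between gates. In G1 HIST1H2BJ led with 23.1% of 74854 histone reads and HIST1H4C held 14.7%, whereas in Early_S HIST1H4C held 53.1% of 42329 and HIST1H2BJ 9.94%. For HIST1H4C all reads lay in 1 region of 51 bases (hg38, chromosome 6, 26104260 to 26104310, plus strand), 327 to 377 bases from the RefSeq start and inside the gene. For HIST1H2AC, in contrast, 98.2% of reads lay in a region that begins 13.4 kb past the RefSeq gene end (chromosome 6, 26138054 to 26139116), and 1.82% in one 454 to 577 bases from the start. HIST1H2BJ had 99.6% of its reads 5.85 kb past its gene end (27125897 to 27126462, minus strand) and HIST1H4H had 84.1% of its reads 3.54 kb past its end (26280899 to 26281587, minus strand). HIST1H2BC had 94.1% of reads 8791 to 9053 bases from its start, within its RefSeq span, and HIST2H2BE all of them between 423 and 2223 bases (chromosome 1, 149884459 to 149886259, minus strand). HIST1H2BD was split, with 43.6% of reads 430 to 520 bases and 56.4% at 12854 to 13228 bases from its start. T>C reads made up 61.9% ± 5.53 (SD, n = 3) of its near region in G1 and 8.87% ± 6.09 in G2, and of its far region 31.3% ± 2.99 and 17.1% ± 1.64. Whether reads so far from a gene belong to its message was not tested. Multimapped reads were 0.687% of histone reads, against 10.9% to 12.1% of all reads in a library, but 40.4% of the reads of HIST1H4J, whose region spans 44 bases.

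**Figure D1:**
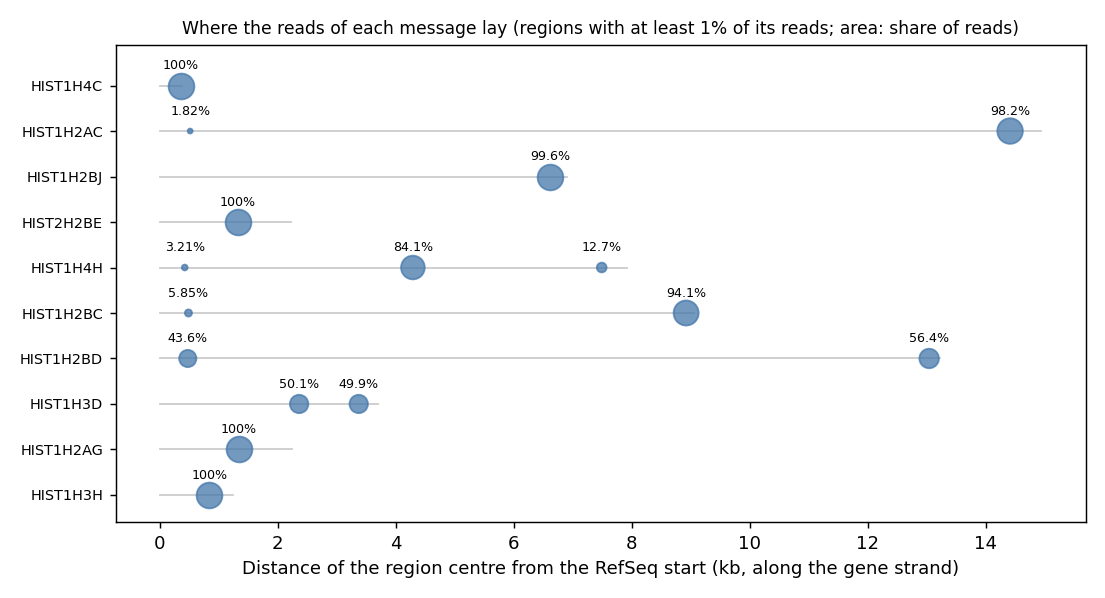
Position of the counted regions of the 10 most abundant histone members. The x axis is the distance of the region's centre from the RefSeq start in kb along the gene's strand, circles are regions with at least 1% of a member's reads, and their area and label give the share of reads; HIST1H4C lies within 377 bases of its start, while 98.2% of HIST1H2AC reads lie past 13 kb.

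Summed over the members, histone RNA with a poly(A) tail stood highest in the G1 gate. The summed level of all members was 1417 ± 21.7 CPM (SD, n = 3) in G1, 786 ± 96.0 in Early_S, 539 ± 22.0 for Late_S, 536 ± 52.3 for G2 and 552 ± 39.4 without alkylation. Without HIST1H4C the sums were 1209 ± 15.9 in G1, 371 ± 32.1 in Early_S, 363 ± 10.9 for Late_S and 372 ± 10.8 for G2. H2B messages summed to 719 ± 15.4 CPM in G1 and 163 ± 9.23 in Early_S, H2A messages to 250.04 ± 5.89 and 124 ± 15.2, and H3 messages to 98.9 ± 16.2 and 25.7 ± 6.25. H4 messages summed to 348 ± 10.7 in G1 and, the other way round, 473 ± 110.3 in Early_S, and without HIST1H4C to 139.9 ± 8.22 and 57.8 ± 6.22. Sums were not tested.

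**Figure D2:**
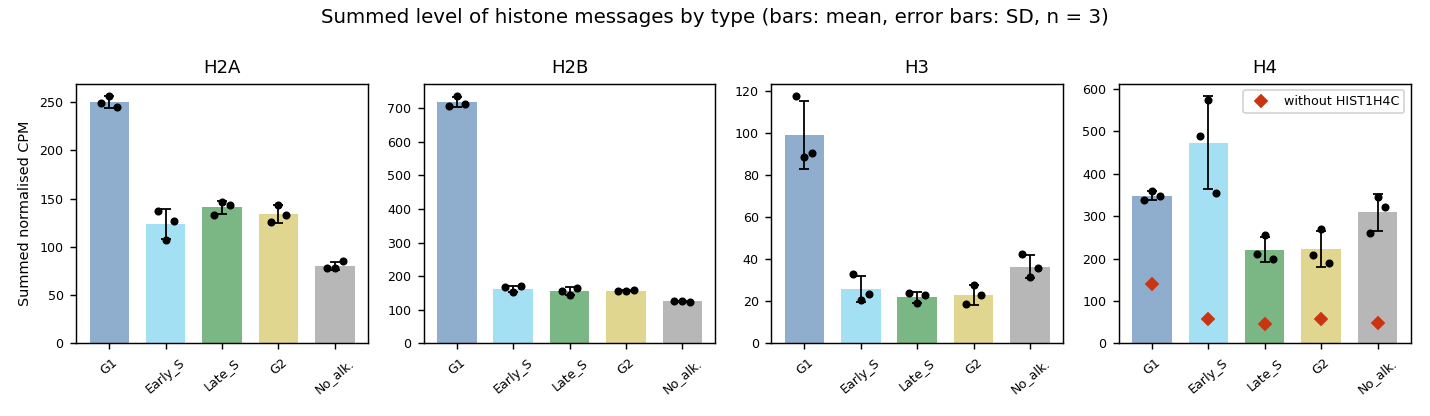
Summed normalised CPM of the histone members of each core type in G1, Early_S, Late_S, G2 and No_alkylation (No_alk.). Bars are means, error bars SD over 3 libraries and black points the libraries; each panel has its own y axis from 0. H2A, H2B and H3 stand highest in G1, H4 in Early_S, and the red diamonds show the H4 mean without HIST1H4C.

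Levels were compared by edgeR's quasi-likelihood test, fitted over all genes in the 12 alkylated libraries, with a change called at a Benjamini-Hochberg adjusted p under 0.05. Of the 37 members, 26 passed the filter on low counts, 23 of them with their highest mean in G1, 2 in Early_S, 1 for Late_S and 0 for G2. A member that passed through G1 alone was bound to stand highest there, so these counts only describe. The test across the 4 gates called 14 of 26 members, beside 34.1% of all 13755 genes tested. Between G1 and Early_S, 12 members fell (beside 11.8% of all genes) and 1 rose (beside 12.5%), with a median log2 change of -1.67, against -0.00408 over all genes; setting members with 0 reads at their bound left that median as it was. Which member did what is given by histone type below, with values per library in normalised CPM and each change as log2 ± SE (n = 3 libraries per gate).

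Of the 12 H2B genes, 8 passed the filter, and 5 of them fell between G1 and Early_S. HIST2H2BE, an H2B gene in the smaller cluster on chromosome 1, was at 204, 189.7 and 207 CPM in the G1 libraries, 22.7, 22.4 and 25.3 in Early_S, 21.4, 18.2 and 26.6 for Late_S, 20.2, 20.4 and 26.9 for G2 and 34.0, 25.5 and 21.8 without alkylation. Every G1 library thus lay far above every other library, and the later gates overlapped one another. The change from G1 to Early_S was -3.08 ± 0.15 (edgeR adjusted p = 1.19e-19), and G2 stood lower than G1 by a like amount (G1 against G2, 3.15 ± 0.15, edgeR adjusted p = 4.63e-20). HIST1H2BJ, from the large cluster on chromosome 6, was at 322, 346 and 315 CPM in G1, 82.5, 71.4 and 82.3 in Early_S, 86.7, 74.6 and 77.7 for Late_S, 82.0, 69.7 and 72.1 for G2 and 52.2, 52.3 and 48.0 without alkylation. It too fell once, between G1 and Early_S (-2.05 ± 0.10, edgeR adjusted p = 3.42e-19), and Early_S and Late_S overlapped (0.00 ± 0.10).

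HIST1H2BC, which shares most of its promoter window with HIST1H2AC, was at 86.6, 107 and 86.8 CPM in G1, 22.4, 32.8 and 30.6 in Early_S, 21.1, 20.7 and 27.6 for Late_S, 19.1, 32.9 and 25.6 for G2 and 7.39, 13.3 and 14.9 without alkylation, and fell from G1 to Early_S by 1.70 ± 0.18 on the log2 scale (edgeR adjusted p = 1.42e-09). HIST1H2BD was at 76.4, 79.1 and 83.7 in G1, 30.3, 20.8 and 25.5 in Early_S, 21.0, 21.7 and 24.5 for Late_S, 30.8, 28.4 and 25.1 for G2 and 28.6, 28.7 and 27.6 without alkylation (-1.63 ± 0.17 from G1 to Early_S, edgeR adjusted p = 5.51e-10). For both genes the G1 libraries lay above all others, whereas in No_alkylation HIST1H2BC was lower than in any gate's mean and HIST1H2BD was like the later gates. HIST1H2BG, at 11, 4.22 and 10.7 in G1 and 0.601, 0.563 and 0.828 in Early_S, also fell (-3.68 ± 0.84, edgeR adjusted p = 0.000950). HIST1H2BN did not separate the gates, with means from 4.03 in G2 to 5.94 in G1 and a change of -0.19 ± 0.48 (edgeR adjusted p = 0.835). HIST1H2BF had 157 reads in G1, 29 in Early_S, 38 for Late_S and 0 for G2, and HIST1H2BL 52, 0, 27 and 21; neither was called between G1 and Early_S (edgeR adjusted p = 0.255 and 0.0555).

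Of the 7 H2A genes, 5 passed and 2 fell. HIST1H2AC, the most abundant H2A message, was at 201, 190.0 and 200.3 CPM in G1, 124, 92.0 and 116 in Early_S, 121, 139 and 135 for Late_S, 116, 128 and 121 for G2 and 58.2, 62.1 and 67.7 without alkylation. G1 stood above the later gates and No_alkylation below all of them, with a fall from G1 to Early_S of 0.82 ± 0.10 on the log2 scale (edgeR adjusted p = 5.99e-08). HIST1H2AG, the divergent neighbour of HIST1H2BJ, was at 34.6, 51.9 and 35.8 in G1, 8.06, 8.11 and 7.96 in Early_S, 9.88, 3.24 and 3.48 for Late_S, 6.33, 10.1 and 7.52 for G2 and 11.5, 6.21 and 10.6 without alkylation (-2.33 ± 0.31, edgeR adjusted p = 2.30e-07). Its fall left the later gates and No_alkylation overlapping. The near-identical copies HIST2H2AA3 and HIST2H2AA4, between which reads can be split, were at 7.53 ± 1.65 and 3.84 ± 2.06 in G1 and 3.30 ± 1.92 and 1.55 ± 0.99 in Early_S, and were not called (edgeR adjusted p = 0.145 and 0.342). HIST1H2AE, with 74 reads in all, was not called either.

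Of the 7 H3 genes, 4 passed and 3 were called lower in Early_S than in G1. HIST1H3D was at 80.9, 63.6 and 57.1 CPM in G1, 24.5, 17.6 and 18.7 in Early_S, 19.2, 14.6 and 16.7 for Late_S, 15.6, 18.4 and 15.5 for G2 and 39.6, 25.9 and 29.4 without alkylation, a fall of 1.72 ± 0.19 on the log2 scale (edgeR adjusted p = 4.69e-09). HIST1H3H was at 29.2, 21.7 and 25.8 in G1, 5.61, 3.21 and 3.44 in Early_S, 1.43, 1.34 and 2.51 for Late_S, 1.65, 8.12 and 2.75 for G2 and 2.52, 3.90 and 2.23 without alkylation (-2.63 ± 0.42, edgeR adjusted p = 5.76e-06). Neither gene's G1 libraries overlapped the later gates. HIST1H3E, at 4.05 ± 2.23 in G1 and 1.32 ± 1.28 in Early_S, was not called (edgeR adjusted p = 0.226). HIST2H3C had 46 reads in G1, 0 in Early_S, 67 for Late_S and 19 for G2. Every 1 of these was a T>C read, so its steady-state and nascent calls rest on the same reads, and No_alkylation held 1 read with no T>C. Its near-identical copy HIST2H3A, between which and HIST2H3C reads can be split, had 83 reads, 61 of them in G1 replicate 1. Against a floor of 3 counts over the Early_S libraries HIST2H3C was at least 15.5-fold higher in G1 and at least 20.2-fold higher in Late_S. Its adjusted p was 0.0242 for Early_S against G1, and that call ended without G1 replicate 2 (adjusted p = 0.0634), without G1 replicate 3 (0.0614) or without any 1 Early_S library (up to 0.0815).

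H4 was the type in which members moved in opposite directions: of 9 genes 8 passed, 1 rose and 2 fell between G1 and Early_S. HIST1H4C was at 207, 215 and 203 CPM in G1, 426, 517 and 304 in Early_S, 166, 206 and 155 for Late_S, 147, 214 and 133 for G2 and 210.1, 298 and 274 without alkylation. Its 3 Early_S libraries lay above all other libraries, although they differed widely among themselves, and G1, Late_S and G2 overlapped. HIST1H4C rose from G1 to Early_S by 1.01 ± 0.13 (edgeR adjusted p = 1.03e-07) and fell from Early_S to Late_S by 1.26 ± 0.13 (edgeR adjusted p = 4.11e-09); leaving out any 1 library kept both calls. HIST1H4H, most of whose reads lay past its gene end, stood highest in G1 and was at 98.2, 105 and 106 in G1, 43.1, 39.5 and 36.0 in Early_S, 27.7, 31.5 and 24.7 for Late_S, 42.1, 36.3 and 38.4 for G2 and 35.3, 29.3 and 26.6 without alkylation. It fell from G1 to Early_S by 1.37 ± 0.14 (edgeR adjusted p = 8.58e-10).

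HIST2H4A and HIST2H4B, near-identical H4 copies between which reads can be split, had low levels. They were at 8.18 ± 1.26 and 8.31 ± 0.924 CPM (SD, n = 3) in G1 and 2.59 ± 1.54 and 5.16 ± 1.45 in Early_S. HIST2H4A was called lower in Early_S (-1.64 ± 0.49, edgeR adjusted p = 0.0117), a call that ended without G1 replicate 3 (adjusted p = 0.0510) or Early_S replicate 2 (0.0651), and HIST2H4B was not called (edgeR adjusted p = 0.257). HIST1H4E had 7.59 ± 1.54 in G1 and 1.77 ± 2.18 in Early_S, HIST4H4 5.89 ± 1.46 and 1.58 ± 0.119, and HIST1H4J 6.09 ± 2.91 and 6.83 ± 2.61; none of the 3 was called between these gates (edgeR adjusted p = 0.123, 0.0547 and 0.847). HIST1H4E was nonetheless among the 14 members called across the 4 gates (edgeR adjusted p = 0.0199), as was HIST1H2BF. HIST1H4B had 27 reads in G1, 17 in Early_S, 11 for Late_S and 0 for G2, and was not called.

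Of the 2 linker histone genes, HIST1H1E passed with 38 reads in G1, 30 in Early_S, 12 for Late_S, 0 for G2 and 59 in No_alkylation, and was not called (Early_S against G1, edgeR adjusted p = 0.935); HIST1H1T had 1 read. The other 10 members below the filter were HIST2H3A with 83 reads over the 15 libraries, HIST1H2AI with 68, HIST1H4I with 36, HIST3H2A with 10, HIST1H2BE with 7, HIST2H2BF with 4, HIST3H2BB with 2, HIST1H2BH and HIST1H3G with 1 each, and HIST3H3 with 0. Of the reads of HIST2H3A, 61 came from 1 library.

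**Figure D3:**
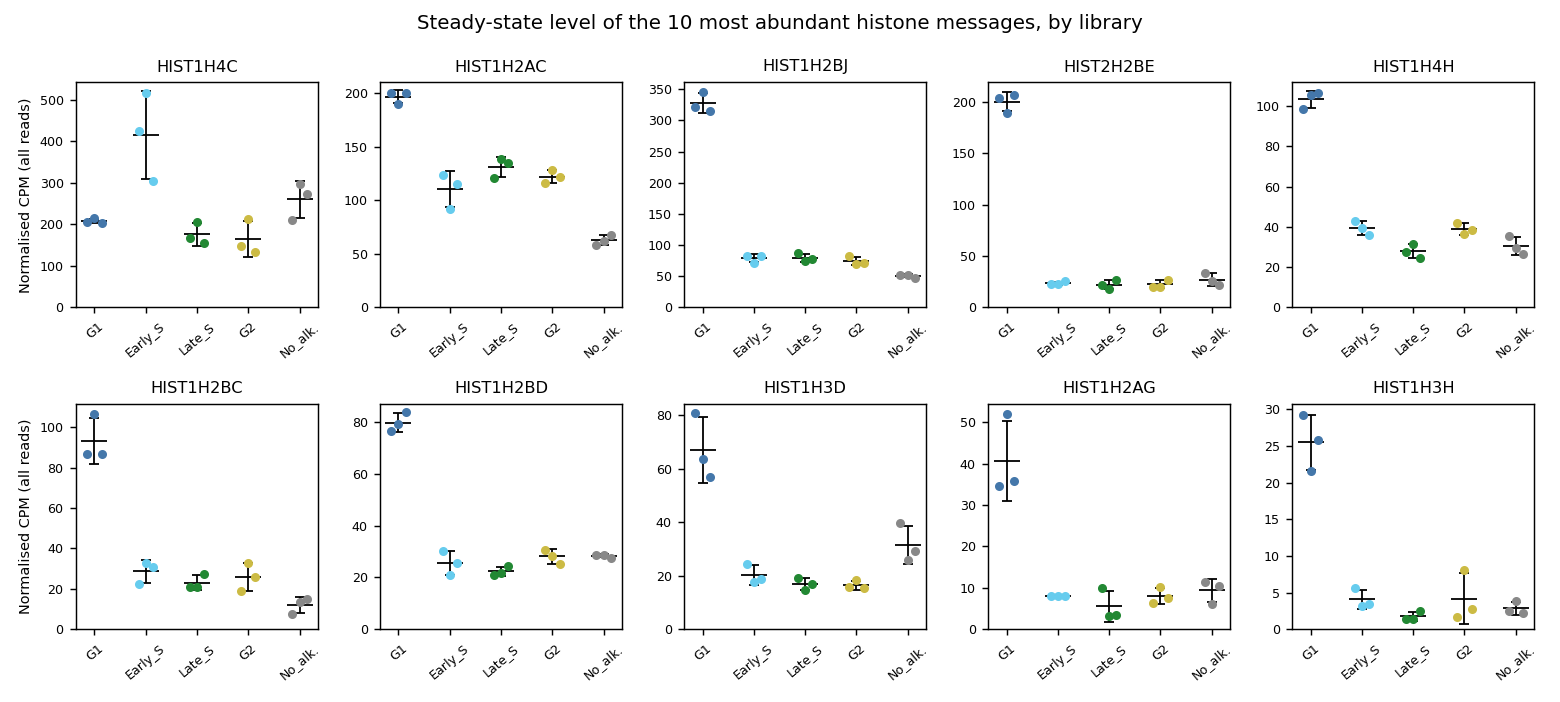
Steady-state level of the 10 most abundant histone members in each library. The y axis is normalised CPM, with a separate scale per panel, points are libraries, and bars are mean and SD of 3 libraries of G1, Early_S, Late_S, G2 and No_alkylation (No_alk.). The panel of HIST1H4C peaks in Early_S at 304 to 517 CPM, and the other 9 stand highest in G1.

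After Early_S few members changed. From Early_S to Late_S 2 members fell (beside 4.25% of all genes) and 1 rose (beside 6.99%). The fall of HIST1H4C is given above, and HIST1H4H was called lower as well (-0.51 ± 0.15, edgeR adjusted p = 0.0153), a call that ended without Early_S replicate 1 (adjusted p = 0.0930), Late_S replicate 1 (0.0505) or Late_S replicate 3 (0.105). The riser was HIST2H3C (edgeR adjusted p = 0.0352), whose call ended without any 1 of 7 libraries (G1 replicate 3 and each Early_S and Late_S library, adjusted p up to 0.116). HIST2H3C passed the filter on all reads only through its Late_S libraries, so its rise to Late_S only describes. From Late_S to G2, 0 of 26 members were called in edgeR in either direction (beside 0.0872% of all genes higher and 0.0582% lower), 3 had an unadjusted p under 0.05, and DESeq2 called 1, HIST1H4H, higher in G2 (0.48, DESeq2 adjusted p = 0.0306; 0.48 ± 0.14 in edgeR, adjusted p = 0.199).

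Between G2 and G1, across mitosis, 11 members were higher in G1 (beside 10.0% of all genes) and 0 lower (beside 11.1%), with 1 or more of every core type among them. HIST1H2BJ (2.13 ± 0.10), HIST1H3D (2.03 ± 0.20), HIST1H2AG (2.35 ± 0.31), HIST1H3H (2.62 ± 0.42), HIST1H2BC (1.85 ± 0.18), HIST1H2BD (1.51 ± 0.17) and HIST1H4H (1.41 ± 0.14) were each higher in G1 by over 1 on the log2 scale. HIST1H2AC was higher by 0.69 ± 0.10 (edgeR adjusted p = 1.84e-06). HIST1H2BF, with 0 reads in G2, was at least 58.3-fold higher in G1 against a floor of 3 counts over the G2 libraries (edgeR adjusted p = 0.00248). G1 replicate 2 held 96 of its 157 reads there, and without that library the bound was 34.4-fold. HIST1H2BF passed the filter on low counts only through its G1 libraries. It was thus tested because it was high in G1, and its calls only describe. HIST1H2BG was called too (2.87 ± 0.80, edgeR adjusted p = 0.00758), but not without G1 replicate 1 (adjusted p = 0.0683) or G1 replicate 3 (0.0619). HIST1H4C missed the threshold (0.34 ± 0.13, edgeR adjusted p = 0.0569). This comparison and the one from G1 to Early_S share the G1 libraries, so their calls are not independent.

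Set as replicating against gap gates (the mean of Early_S and Late_S against that of G1 and G2), 10 members were lower in the S gates (beside 8.16% of all genes) and 1, HIST1H4C, was higher (beside 8.40%). The difference was 0.55 ± 0.09 for HIST1H4C (edgeR adjusted p = 2.72e-05), against -1.56 ± 0.10 for HIST2H2BE, -0.98 ± 0.07 for HIST1H2BJ, -0.93 ± 0.10 for HIST1H4H and -0.36 ± 0.07 for HIST1H2AC. HIST1H2BG (-2.00 ± 0.57) lost its call without G1 replicate 1 (adjusted p = 0.0616) or G1 replicate 3 (0.0568). For most members this contrast averages a high G1 with a low G2, as their values per library above show.

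In new RNA, HIST1H4C rose and 9 members fell from G1 to Early_S, while HIST1H2AC, HIST1H2BG and HIST2H4A, which fell at steady state, were not called. T>C reads were fitted as all reads were, scaled by the bulk of T>C reads, and 21 members passed the filter. Across the 4 gates 9 of 21 were called (beside 10.4% of all genes). Between G1 and Early_S 9 fell (beside 1.48%) and 1 rose (beside 3.69%). The nascent level of HIST1H4C was 408, 540.3 and 411 T>C CPM (CPM of T>C reads alone, normalised) in G1, 1285, 1684 and 909 in Early_S, 659, 710.0 and 572 for Late_S and 798, 1206 and 647 for G2. The Early_S libraries lay above those of G1 and Late_S and overlapped those of G2. It rose from G1 to Early_S by 1.51 ± 0.19 (edgeR adjusted p = 1.99e-06) and fell to Late_S by 1.00 ± 0.18 (edgeR adjusted p = 0.00122). HIST1H2BG, though not called, had 24.8, 5.12 and 32.1 T>C CPM in G1 and 0.775, 2.55 and 4.08 in Early_S, without overlap. HIST2H4A, also not called, had 16.6, 11.5 and 17.6 in G1 and 11.4, 5.10 and 6.13 in Early_S, just without overlap. At such low counts a missing call does not show that new RNA differed from total RNA.

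HIST2H2BE had 462, 479 and 444 T>C CPM in G1, 47.8, 43.0 and 49.7 in Early_S, 23.8, 30.2 and 62.4 for Late_S and 32.5, 34.0 and 99.1 for G2, and fell from G1 to Early_S by 3.30 ± 0.34 (edgeR adjusted p = 9.38e-08). HIST1H2BJ had 699.8, 789.8 and 639 in G1, 224, 213 and 241 in Early_S, 149, 114 and 149 for Late_S and 200.2, 104 and 129 for G2 (-1.65 ± 0.19, edgeR adjusted p = 4.70e-07). New RNA of both genes was thus highest in G1, with no overlap with later gates. HIST1H2BD (-2.23 ± 0.33), HIST1H2AG (-3.43 ± 0.58) and HIST1H4H (-1.39 ± 0.24) fell as well. HIST1H2AC had 298, 261 and 274 in G1, 388, 261 and 343 in Early_S, 258, 258 and 243 for Late_S and 261, 376 and 248 for G2, where Late_S lay just below G1 and Early_S and the other gates overlapped. Its nascent level was not called between G1 and Early_S (0.25 ± 0.17, edgeR adjusted p = 0.599), while its steady-state level fell, and the ratio of its T>C to other reads is tested with the labelled shares.

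The other 4 nascent calls between G1 and Early_S each ended without some libraries. HIST1H2BC (-1.42 ± 0.38, edgeR adjusted p = 0.0245) lost its call without any 1 G1 library, without Early_S replicate 1 or without Early_S replicate 2 (adjusted p up to 0.157). HIST1H3D (-0.92 ± 0.26, edgeR adjusted p = 0.0330) lost it without any 1 G1 library or without Early_S replicate 2 or 3 (up to 0.178), and HIST1H3H (-3.52 ± 0.87, edgeR adjusted p = 0.0125) without G1 replicate 1 or 3 or Early_S replicate 2 or 3 (up to 0.0758). HIST2H3C, all of whose 46 G1 reads were T>C reads, was at least 12.4-fold lower in Early_S (edgeR adjusted p = 0.0397), a call that ended without G1 replicate 2 or 3, any 1 Early_S library or any 1 Late_S library (adjusted p up to 0.131), and with a replicate block (0.0750).

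**Figure D4:**
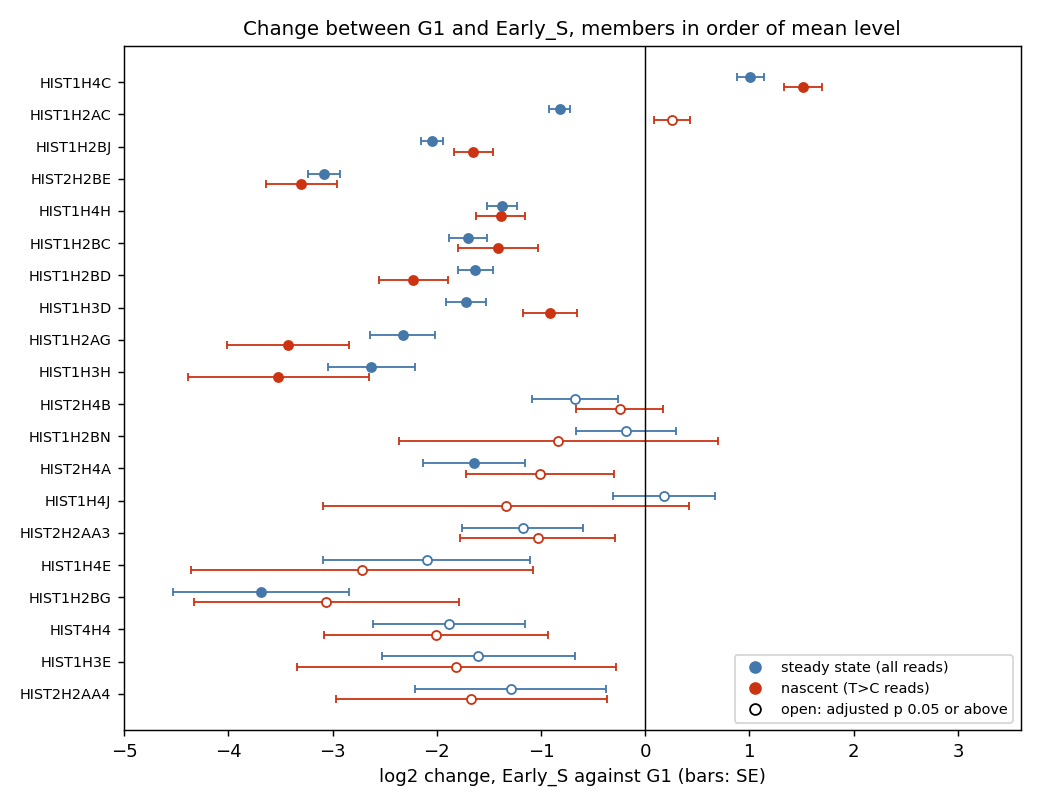
Change of each histone member between G1 and Early_S at steady state (blue, all reads) and in nascent RNA (red, T>C reads). The x axis is the log2 change, bars are SE, filled points have an edgeR adjusted p under 0.05, and the 20 members tested in both and with reads in both gates are in order of mean level. HIST1H4C lies right of 0 in both, and HIST1H2AC is left of 0 at steady state and not called in nascent RNA.

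From Early_S to Late_S the nascent level fell in 2 members (beside 1.81% of all genes) and rose in 1 (beside 1.72%). These were HIST1H4C, above, HIST1H2BJ (-0.72 ± 0.19, edgeR adjusted p = 0.0272) and HIST2H3C, at least 37.4-fold higher in Late_S (edgeR adjusted p = 0.0159). The call of HIST1H2BJ ended without any 1 Early_S library or Late_S replicate 2 (adjusted p up to 0.130), and that of HIST2H3C without any 1 Early_S library (up to 0.0662). From Late_S to G2, 0 of 21 members were called in edgeR (beside 0.0174% of all genes higher and 0.0349% lower), 3 had an unadjusted p under 0.05, and DESeq2 again called HIST1H4H higher in G2 (0.86, DESeq2 adjusted p = 0.0475; edgeR adjusted p = 0.218). Between G2 and G1, 6 members were higher in G1 (beside 2.90% of all genes) and 1, HIST1H4C, was lower (beside 4.40%). The 6 were HIST2H2BE (3.05 ± 0.34), HIST1H2BJ (2.30 ± 0.19), HIST1H2AG (3.66 ± 0.60), HIST1H2BC (1.88 ± 0.39), HIST1H2BD (1.86 ± 0.33) and HIST1H4H (1.27 ± 0.24).

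The nascent difference of HIST1H4C between G1 and G2 depended on the scale. Relative to the bulk of T>C reads it was -0.96 ± 0.18 (edgeR adjusted p = 0.000745), and with T>C reads scaled by all reads it was 0.29 (adjusted p = 0.144). That scale moves the median gene by -0.33 in Early_S against G1, -0.91 in Late_S against Early_S, -0.03 in G2 against Late_S, 1.27 in G1 against G2 and -0.14 for the S against the gap gates. In the S gates against the gap gates, 5 members were lower (beside 0.636% of all genes) and HIST1H4C was higher (beside 1.97%; 0.53 ± 0.13, edgeR adjusted p = 0.0183). The call of HIST1H4C ended without G1 replicate 1 or 3, Early_S replicate 2, Late_S replicate 2 or G2 replicate 1 or 3 (adjusted p up to 0.122), in DESeq2 (0.133) and scaled by all reads (0.0661). The 5 lower members were HIST2H2BE (-1.91 ± 0.24), HIST1H4H (-1.12 ± 0.17), HIST1H2BD (-1.14 ± 0.23), HIST1H2BJ (-0.86 ± 0.13) and HIST1H3H (-2.48 ± 0.61), the last not without G1 replicate 1 or 3, Early_S replicate 3 or G2 replicate 1 (adjusted p up to 0.0873).

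Most members had a labelled share above that of the median gene. Among members with at least 100 reads in a gate, 18 of 21 had a labelled share above that of the median gene in G1 (26.7%), 11 of 15 in Early_S (19.9%), 15 of 17 for Late_S (9.96%) and 14 of 17 for G2 (9.52%). In No_alkylation it was 7 of 17 (median gene 0.505%). HIST1H4C had a labelled share of 47.4%, 54.6% and 49.4% in G1, 58.5%, 57.6% and 55.9% in Early_S, 39.4%, 35.1% and 36.8% for Late_S, 54.1%, 52.7% and 50% for G2 and 0.107%, 0.111% and 0.0994% without alkylation. It thus dipped in Late_S, where no library overlapped those of the other gates, and in G2 it lay above 95.3% of the 11684 genes with at least 100 reads. The share of the median gene also fell from Early_S (19.9%) to Late_S (9.96%). Relative to the bulk of genes, the fall of HIST1H4C at that step was not called. HIST1H2AC had 35.7%, 29.8% and 33.4% in G1, 60.7%, 50.1% and 55.5% in Early_S, 21.2%, 19.0% and 18.0% for Late_S, 22.4%, 27.4% and 21.0% for G2 and 0.865%, 0.177% and 1.93% without alkylation, highest in Early_S with no overlap. HIST1H2BJ had 52.3%, 49.5% and 49.5% in G1, 52.6%, 52.8% and 54.7% in Early_S, 17.1%, 15.7% and 19.1% for Late_S, 24.4%, 13.9% and 18.4% for G2 and 1.71%, 0.736% and 2.27% without alkylation. Its Early_S libraries lay just above those of G1, although its level had fallen, and both lay far above Late_S and G2.

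HIST1H3D kept a high share in every gate, with 56.1%, 54.4% and 64.7% in G1, 85.9%, 73.1% and 83.3% in Early_S, 74.5%, 70.3% and 62.3% for Late_S and 53.5%, 84.7% and 68.6% for G2, and 0%, 0% and 0.370% in No_alkylation. Its Early_S libraries lay above those of G1. HIST2H4B had the highest pooled share of the members with at least 100 reads in each of the 4 gates. It was at 93.2% ± 5.64 (SD, n = 3), 90.3% ± 1.95 and 93.4% ± 3.62 in Early_S, Late_S and G2, beside 87.6% ± 13.1 in G1. In No_alkylation HIST2H4B had 0 T>C reads of 43 reads, which allows a share of up to 6.98% (counting error only). Its near-identical copy HIST2H4A had 43.4% ± 6.31, 57.5% ± 8.15, 38.6% ± 6.42 and 26.0% ± 10.5 in the 4 gates. Reads can be split between these copies. HIST2H4B was at 0.550 to 0.952 CPM in No_alkylation, against 3.62 to 9.79 in the libraries of the gates. Whether its share measures new RNA alone was not tested. HIST2H2BE had 53.8% ± 1.31 in G1, 37.1% ± 3.44 in Early_S, 17.1% ± 6.16 for Late_S and 23.2% ± 12.7 for G2, HIST1H2BC 33.4% ± 0.822, 32.9% ± 9.75, 11.7% ± 5.18 and 15% ± 6.28, and HIST1H2BD 45.4% ± 1.29, 23.8% ± 5.46, 18.5% ± 5.02 and 14.8% ± 2.23. For HIST1H4H it was 53.8% ± 2.78, 42.2% ± 7.14, 20.0% ± 5.76 and 25% ± 2.53, for HIST1H2AG 39.8% ± 10.1, 14.2% ± 5.43, 26.3% ± 9.48 and 6.40% ± 2.10, and for HIST1H3H it ranged in G2 from 6.67% to 90%.

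**Figure D5:**
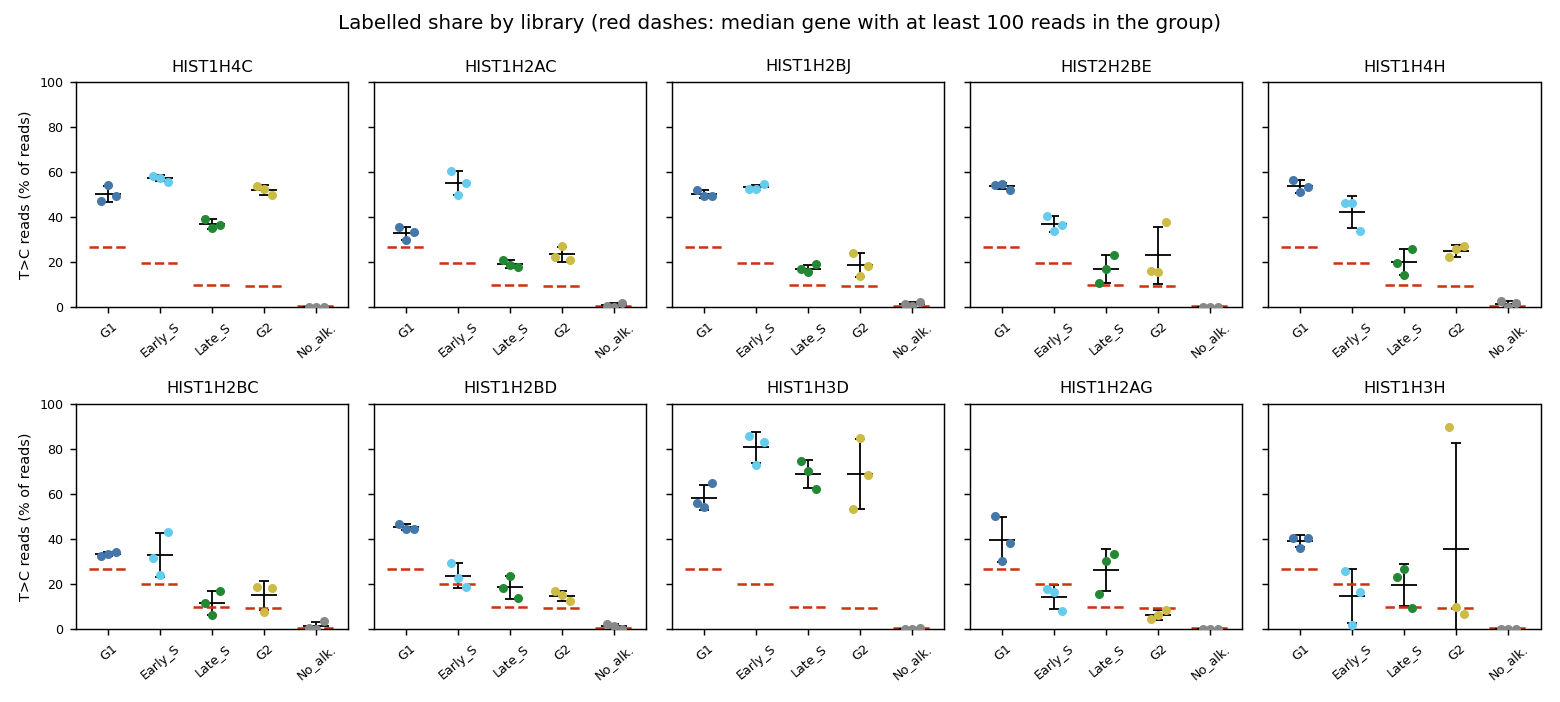
Labelled share of the 10 most abundant histone members in each library. The y axis is T>C reads as a percentage of the member's reads, points are libraries, bars are mean and SD of 3 libraries, and red dashes give the median gene with at least 100 reads in that group. HIST1H4C and HIST1H3D lie above the dashes in all 4 gates, and No_alkylation (No_alk.) lies near 0.

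Labelled shares were tested as the ratio of T>C to other reads, in one edgeR model scaled by the bulk of genes, so that a gene whose share falls as much as the median gene's does not change. Across the 4 gates 5 of 21 members were called (beside 14.7% of all genes): HIST1H4C, HIST1H2AC, HIST1H2BJ, HIST1H3D and HIST1H2AG, the last with an edgeR adjusted p of 0.0495. From G1 to Early_S the ratio rose in 3 members (beside 4.27% of all genes) and fell in 0 (beside 1.07%). HIST1H2AC rose by 1.74 ± 0.21 (edgeR adjusted p = 4.13e-06), also when scaled by all reads. HIST1H3D rose by 2.02 ± 0.45 (edgeR adjusted p = 0.00617) and HIST1H4C by 0.79 ± 0.16 (edgeR adjusted p = 0.00258), but neither was called when scaled by all reads (adjusted p = 0.0928 and 0.189). From Early_S to Late_S it fell in 2 members (beside 5.85% of all genes) and rose in 0 (beside 2.27%), HIST1H2BJ by 1.30 ± 0.22 and HIST1H2AC by 1.22 ± 0.21 (edgeR adjusted p = 0.000280 and 0.000343).

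From Late_S to G2 the ratio rose in HIST1H4C (0.92 ± 0.16, edgeR adjusted p = 0.0171), 1 member beside 0.0174% of all genes, and fell in 0 (beside 0.0261%). That call ended without Late_S replicate 2 or 3 or G2 replicate 1 or 2 (adjusted p up to 0.134) and scaled by all reads (0.0632). In G1 against G2 it was higher in 0 members (beside 4.40%) and lower in 3 (beside 4.33%): HIST1H4C (-1.68 ± 0.16), HIST1H3D (-2.31 ± 0.46) and HIST1H2AC (-0.89 ± 0.21). These are values relative to the median gene, whose share itself was higher in G1. Scaled by all reads, the ratio of HIST1H4C was -0.10 (adjusted p = 0.590) and that of HIST1H3D -0.75 (adjusted p = 0.237), while HIST1H2AC turned to 0.68 (adjusted p = 0.0159). In the S gates against the gap gates HIST1H2AC alone of the 21 was called, higher by 0.68 ± 0.15 (edgeR adjusted p = 0.00826; beside 2.2% of all genes higher and 0.758% lower), and not when scaled by all reads (adjusted p = 0.115).

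Against the No_alkylation libraries, 19 of 21 members tested had a higher labelled share in the alkylated libraries (beside 83.8% of all genes) and 0 a lower one (beside 0.00775%). The log2 ratio was 9.81 ± 0.28 for HIST1H4C, 6.93 ± 0.58 for HIST2H2BE, 5.60 ± 0.40 for HIST1H2AC and 4.96 ± 0.34 for HIST1H2BJ. HIST1H2BF and HIST1H4J were not called. The calls of HIST1H2BG, HIST1H2BN, HIST1H3E, HIST1H4E, HIST2H2AA4 and HIST4H4 each ended when 1 of some libraries was left out, with their adjusted p up to 0.249 (without No_alkylation replicate 3), 0.0817 (No_alkylation replicate 2, also replicate 1), 0.133 (No_alkylation replicate 3, also replicate 2), 1.00 (Early_S replicate 3), 0.116 (No_alkylation replicate 3, also replicate 2 and G1 replicate 1; with no filter on low counts 0.0626) and 0.0699 (No_alkylation replicate 3, also replicate 1). For HIST1H2BG the call also ended without G1 replicate 1 or 3 or Late_S replicate 3.

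In level, No_alkylation differed from the mean of the 4 gates in 9 of 26 members, 8 lower (beside 21.0% of all genes) and 1 higher (beside 22.5%). HIST1H2AC (-1.12 ± 0.09), HIST1H2BJ (-1.13 ± 0.09), HIST1H2BC (-1.58 ± 0.18), HIST2H2BE (-0.53 ± 0.13), HIST1H4H (-0.60 ± 0.12), HIST2H4A (-2.88 ± 0.53) and HIST2H4B (-3.01 ± 0.46) were lower, and HIST1H4J higher (1.31 ± 0.31). HIST1H3H was called lower (-0.87 ± 0.36, edgeR adjusted p = 0.0477), but not without any 1 of 8 libraries (each G1 library, Early_S replicate 1, Late_S replicate 3, G2 replicate 2, No_alkylation replicate 1 or 3; adjusted p up to 0.195). HIST1H4C was not called (0.22 ± 0.10, edgeR adjusted p = 0.0831). Since the cells of these libraries are not stated, the difference in treatment and any difference in cells cannot be told apart.

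Among genes known to switch on, process or degrade histone messages, the shares called were near those of all genes. Of 44 listed genes 43 were measured, and between G1 and Early_S 4 rose (beside 12.5% of all genes), 6 fell (beside 11.8%) and 33 were not called at steady state, with a median of -0.11. In nascent RNA edgeR called 0 of 43 (beside 3.69% of all genes higher and 1.48% lower), 5 were under 0.05 without adjustment, and DESeq2 called 1, lower. SLBP, which binds the stem-loop, was at 50.4, 70.2 and 60.8 CPM in G1 and 35.5, 22.2 and 38.6 in Early_S, without overlap (-0.90 ± 0.18, edgeR adjusted p = 0.000193). FIP1L1, a subunit of the polyadenylation factor CPSF, was at 110.0, 87.5 and 117 in G1, 62.8, 40.5 and 44.0 in Early_S and 78.3, 85.5 and 85.2 in Late_S, falling and then rising (-1.08 ± 0.14 and 0.74 ± 0.14, edgeR adjusted p = 1.17e-07 and 0.000227). CDK2, the kinase that phosphorylates the histone gene activator NPAT, rose by 0.42 ± 0.08 (edgeR adjusted p = 7.13e-05), and its cyclin gene CCNE1 fell by 0.31 ± 0.10 (edgeR adjusted p = 0.0178).

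The 12 replacement histone variants, whose messages carry poly(A) tails and are made outside S phase too, did not follow one direction. Between G1 and Early_S 6 rose (beside 12.5% of all genes), 3 fell (beside 11.8%) and 3 were not called, with a median of 0.18 beside -1.67 for the histone members; the difference between the lists was not tested. H1F0, a linker variant, fell from 666 ± 30.0 to 227 ± 4.68 CPM (-1.54 ± 0.08, edgeR adjusted p = 6.29e-19). CENPA, the centromeric H3 variant, rose by 0.94 ± 0.16 (edgeR adjusted p = 2.17e-05), H2AFX rose by 0.41 ± 0.09 (edgeR adjusted p = 0.000356), and H3F3B fell by 0.49 ± 0.05 (edgeR adjusted p = 3.98e-09).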

How the data were processed

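RNA made during a 45-minute pulse was measured by SLAM-seq in 15 libraries of U2OS cells, 3 from each of 4 sorted gates and 3 without alkylation. The deposited tables hold whole-number counts of reads and of T>C reads per region, made by the authors with slamdunk 0.2.4 per the file headers. The submitters' processing notes name hg38 and Ensembl release 90. Regions were summed by gene name. The members and gene lists were chosen with earlier results of these data known. No molecular identifiers were used here, so an interval or floor takes in only the error of counting.

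Genes were kept by filterByExpr (minimum count 10, minimum total 15). Levels, T>C reads and the ratio of T>C to other reads were fitted over all genes with edgeR 4.0.16 in R 4.3.3, with TMM scaling, quasi-likelihood tests and Benjamini-Hochberg adjustment over all genes tested; SE is the log2 change divided by the square root of F. CPM are normalised by TMM. Every member past the filter was named, the 10 with the highest mean CPM by library, members called in any comparison with their change, and up to 4 genes of each other list by smallest F-test p. Fits of levels and of the ratio were run on simulated data in which the changed genes were well covered and the spread was fixed. The fit of T>C reads alone was not simulated. These runs therefore do not speak for members with few reads or a wide spread between libraries. Alternatives were RLE size factors, DESeq2 1.42.0, no filter, a replicate block, names joining several genes left out, multimapped reads subtracted, T>C reads scaled by all reads, and each library left out. For labelled shares summed by histone type, the conversion rate (conversions as a percentage of the T positions covered) was the alternative.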

Additional observations from a re-analysis of the deposited data

How the results depend on the processing

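Of 197 counts of called members under other settings, 177 were within 1.5 times the reported count, as were 416 of 456 with 1 library left out. In DESeq2, 0 members were higher at steady state in Late_S than in Early_S, 1 was higher in G2 than in Late_S at steady state and 1 in nascent RNA, and 0 nascent levels were higher in the S gates. DESeq2 gave an adjusted p for 37 of the 38 steady-state calls and 24 of the 26 nascent calls. It gave none for HIST2H3C at steady state in Late_S against Early_S, so that call was neither kept nor lost there. In nascent RNA from Early_S to Late_S, DESeq2 but not edgeR called HIST2H4B higher (1.20, DESeq2 adjusted p = 0.0466) and HIST1H4H lower (-0.73, DESeq2 adjusted p = 0.0317). With T>C reads scaled by all reads, the nascent test across gates called 14 members, 6 fell from Early_S to Late_S, 11 were higher and 0 lower in G1 than in G2, and 0 were higher in the S gates. On that scale the labelled share was called across gates in 8 members. It rose in 1 and fell in 1 from G1 to Early_S, fell in 6 from Early_S to Late_S, rose in 0 from Late_S to G2, was higher in 7 and lower in 0 in G1 than in G2, and was higher in 0 in the S gates. The nascent change of HIST1H4C in G1 against G2 turned to 0.29 (adjusted p = 0.144) and the labelled share of HIST1H2AC to 0.68 (adjusted p = 0.0159). Here the scale itself is what differs, since it moves the median gene. With the conversion rate in place of T>C reads, 9 log2 ratios of labelled share between gates, summed by histone type, moved beyond their spread and 7 did not. The labelled share of H2B was 48.3% in G1 and 41.3% in Early_S, but its conversion rate was 4.78% and 5.33%. For H2A, H3 and H4 both measures were higher in Early_S.

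With no filter, 2 members had a higher labelled share in the S gates and 2 a higher level in No_alkylation. With a library left out, members higher at steady state in Late_S than in Early_S numbered 0 to 1 and lower ones 1 to 3. Nascent falls from G1 to Early_S numbered 5 to 9, nascent rises from Early_S to Late_S 0 to 1, falls 1 to 2, and higher nascent levels in the S gates 0 to 1. For the labelled share, 0 to 1 rose from Early_S to Late_S, 0 to 1 rose from Late_S to G2, 0 to 1 were higher in G1 than in G2, and 1 to 2 were higher in the S gates. In No_alkylation 1 to 3 levels were higher. Leaving out each library in turn kept 32 of 38 steady-state calls, 18 of 26 nascent calls, 9 of 10 labelled-share calls, 13 of 19 calls against No_alkylation and 8 of 9 level calls there. The cause of these differences was not tested.

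Same-numbered libraries deviated together weakly if at all: the 18 pairs had correlations from -0.0166 to 0.0308, 0 of them over 0.1. Pairs of other numbers had correlations from -0.0328 to 0.0189. Of 12 libraries, 9 correlated best with their own number, so pairing by number was not shown to be absent. With the replicate number as a block, 3 members were higher in No_alkylation in place of 1, and 1 of 26 nascent calls ended (HIST2H3C from G1 to Early_S, edgeR adjusted p = 0.0750). Under the block, 0 of 38 steady-state calls, 0 of 10 labelled-share calls and 0 of 9 level calls in No_alkylation ended. The calls of a labelled share above that of No_alkylation were not fitted with a block. Of the 37 members, 26 passed the filter for all reads and 21 for T>C reads.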
